A study of Mus musculus with 16 samples.

Results

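Cells sorted from the mouse heart for the surface receptor c-kit were compared with mesenchymal stem cells (MSC) of the bone marrow, gene by gene, on whole-genome expression arrays. The comparison takes the 3 arrays titled as cardiac c-kit progenitors and the 3 titled as marrow MSC, 6 of the 16 arrays of the study, and covers all 17710 genes that could be named. Both groups came from C57BL/6 mice with a genotype given only as normal, and no transgene, drug or time point is named. The heart c-kit cells were collected by flow cytometry, and the labels name no gate beside c-kit. The MSC were isolated from the marrow and harvested after 5 passages in culture. Organ, sorting and passage therefore differ together between the groups and cannot be told apart. The labels list the same Matrigel-coated dishes and mTeSR medium for every sample, including the sorted ones, and do not say for how long any sorted cells were cultured. Age, sort purity, cell number and the number of animals per sample are not stated. The study as a whole set out to compare cardiac progenitors with cardiomyocytes.

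c-kit is the receptor tyrosine kinase for stem cell factor. It marks blood progenitors and mast cells, and in the heart it has been used to sort candidate progenitor cells, a fraction in which endothelial and mast cells are also known to carry it. Endothelial cells line the vessels and are known by adhesion molecules such as CD31 and VE-cadherin, by the receptors for VEGF and angiopoietin, and by transcription factors of the SoxF group. MSC are plastic-adherent stromal cells that can form bone, cartilage and fat. By the usual definition they carry endoglin and other stromal antigens and lack the leukocyte antigen CD45. Bone morphogenetic proteins (BMPs) are secreted factors that act through receptor kinases and SMAD proteins, and secreted antagonists such as gremlin 1 bind them outside the cell.

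Values are quantile-normalised log2 levels of Cy5 spot intensity, so a difference of 1 is a doubling. Differences are heart c-kit minus MSC, and array values are listed in the order of replicates 1, 2 and 3. The MSC arrays resembled each other closely, with Pearson correlations over genes of 0.935 to 0.942, and the heart c-kit arrays less so, at 0.791 to 0.805. Heart c-kit replicate 3 correlated with the 3 MSC arrays at 0.791, 0.805 and 0.801, as high as with the other arrays of its own group. Heart c-kit replicate 2 was the dimmest of the 6, with a median spot intensity of 18 against 45 to 173 on the others, and 13.7% of its probes stood at a fill value. Whether replicates are separate animals or separate cultures is not in the labels. Each p-value therefore measures the spread between arrays, which may be technical, and 3 arrays a group limit the precision. That spread is pooled over all 16 arrays in 6 groups, so a standard error (SE) also reflects populations outside the comparison. Robo4 had SDs of 0.19 in heart c-kit cells, 0.32 in MSC and 3.95 in heart Sca1 cells, and an SE of 1.42. Lox had SDs of 3.27 in heart c-kit cells and 0.32 in MSC, and an SE of 1.17. In bulk RNA such as this, fewer cells of a type and less RNA per cell cannot be told apart.

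Of the 17710 genes, 2143 (12.1%) were called at a limma adjusted p under 0.05. The 727 genes higher in heart c-kit cells made up 4.11% of all genes and the 1416 lower made up 8.0%, so 66.1% of the calls were lower. On the deposited values without normalisation, 81.2% of 1746 calls were lower. Groups did not overlap for 6095 genes (34.4%), among them 2119 of the called ones. The median difference of all genes was 0.16. It was 0.57 when arrays were only aligned at their medians, and list medians below are to be read against the first of these. Without MSC replicate 1 the calls numbered 1075, without MSC replicate 3 they numbered 1222, and in a fit of only these 6 arrays 1043. Without the dim heart c-kit replicate 2 there were 1780 calls, 1279 of them lower.

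Both labels were checked against marker genes. Kit, the gene of c-kit itself, stood at 2.13, 5.04 and 3.83 on the heart c-kit arrays and -1.48, -1.83 and -1.53 on the MSC arrays. The groups did not overlap and differed by 5.28 ± 0.87 (SE; limma adjusted p = 0.00155), which checks the sort and is no finding of the comparison. Ptprc encodes CD45, the pan-leukocyte phosphatase that MSC are defined to lack. Its levels were 2.88, 5.17 and 3.99 on the heart c-kit arrays and 6.71, 7.53 and 6.91 on the MSC arrays, so every MSC array lay above every heart c-kit array. The difference was -3.04 ± 0.94 (SE; limma adjusted p = 0.0499), and a second probe gave -3.15. Ptprc was no longer called without heart c-kit replicate 1 or 3, without MSC replicate 1, 2 or 3, with medians aligned, on the deposited values, with low values raised, with the replicate block, with array weights or in a fit of the 6 arrays alone (limma adjusted p from 0.0561 to 0.182). Further macrophage genes were high on the MSC arrays as well, as described with the leukocyte genes, and this goes against the label MSC as usually defined. The name is kept here for the arrays so labelled. The heart cells are called after their sort, because endothelial genes led their differences and not genes of heart muscle.

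Grem1, which encodes the BMP antagonist gremlin 1, had the largest called difference of all genes in either direction. Its levels were -3.05, -6.30 and -5.41 on the heart c-kit arrays, the last of these at the fill value, and 7.41, 7.20 and 7.74 on the MSC arrays. The 3 MSC arrays were tightly grouped and high, while the heart c-kit arrays lay near the floor. The difference was -12.37 ± 1.14 (SE; limma adjusted p = 3.44e-05). Its size is uncertain because one side was not far above the floor. With every value below the 30th percentile (a level of -2.28) raised to it, the difference was -9.72. In the other 4 populations of the study the mean level of Grem1 ranged from -3.0 in marrow c-kit cells to -0.5 in heart Sca1 cells.

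Pecam1, the gene of the endothelial adhesion molecule CD31, was the other marker set for this comparison. It stood at 4.59, 7.57 and 5.90 on the heart c-kit arrays and -2.69, -2.42 and -4.02 on the MSC arrays. All heart c-kit arrays were high and all MSC arrays low, with a difference of 9.06 ± 1.12 (SE; limma adjusted p = 0.000252). The other probes of Pecam1 gave differences of 9.72 and 9.28.

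**Figure D1:**
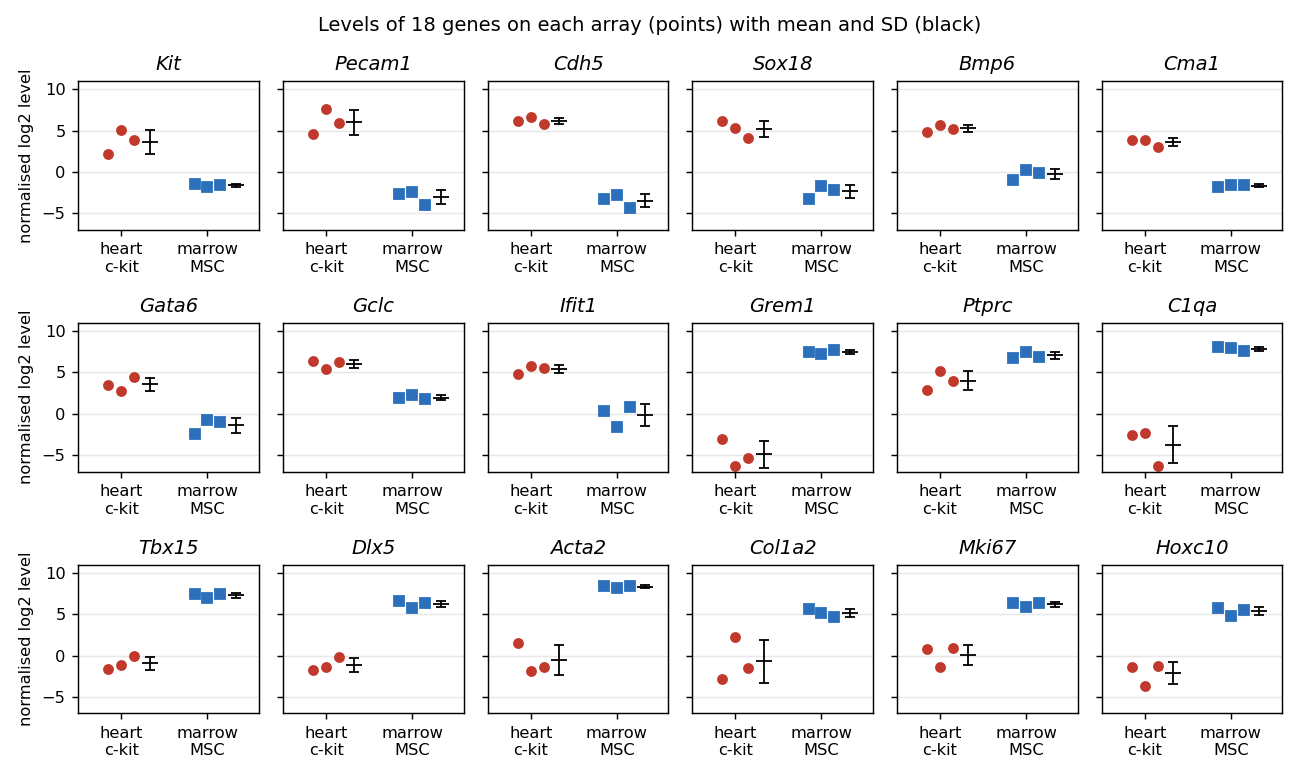
Normalised log2 levels (vertical axis) of 18 genes on each of the 3 heart c-kit arrays (red circles) and the 3 marrow MSC arrays (blue squares), with the group mean and SD in black. Groups are apart for each gene shown, and Grem1 runs from below -3 on every heart c-kit array to above 7 on every MSC array.

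The sequences upstream of a few genes are shown because the genes were called, their lists had calls in 1 direction only, and the windows carry a short motif tied in the literature to such genes, or, for Grem1, because the gene had the largest difference. Each is the 250 bases before the start of the gene, from RefSeq on GRCm38.p6, read 5′ to 3′ on the gene's strand. Capitals mark matches to the motif of the gene's list on either strand. Tie1 (chr4:118489850-118490099, minus strand) is an endothelial receptor gene with 1 match to the ETS motif GGAAGT. Bub1 (chr2:127831860-127832109, minus strand), a spindle checkpoint kinase gene, holds 2 matches to CCAAT, and Plk1 (chr7:122159185-122159434, plus strand), a mitotic kinase gene, holds 1. Ifit1 (chr19:34640639-34640888, plus strand) is an interferon-induced gene with 2 matches to the interferon response motif, a pair of TTTC words with 2 bases between them. Grem1 (chr2:113758649-113758898, minus strand) is printed without capitals.
Grem1: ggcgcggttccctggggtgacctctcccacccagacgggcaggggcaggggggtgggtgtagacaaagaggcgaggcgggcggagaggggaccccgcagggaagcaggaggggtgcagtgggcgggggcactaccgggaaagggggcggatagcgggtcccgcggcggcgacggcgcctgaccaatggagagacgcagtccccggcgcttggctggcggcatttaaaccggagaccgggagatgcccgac
Tie1: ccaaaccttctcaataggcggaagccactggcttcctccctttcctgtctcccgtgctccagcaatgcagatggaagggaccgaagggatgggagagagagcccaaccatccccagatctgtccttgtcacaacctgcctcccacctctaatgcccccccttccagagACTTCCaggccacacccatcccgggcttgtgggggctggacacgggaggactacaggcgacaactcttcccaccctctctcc
Bub1: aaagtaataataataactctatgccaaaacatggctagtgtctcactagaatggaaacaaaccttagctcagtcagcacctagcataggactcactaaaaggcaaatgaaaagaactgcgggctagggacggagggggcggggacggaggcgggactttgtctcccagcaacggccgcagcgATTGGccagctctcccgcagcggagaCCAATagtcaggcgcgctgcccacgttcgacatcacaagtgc
Plk1: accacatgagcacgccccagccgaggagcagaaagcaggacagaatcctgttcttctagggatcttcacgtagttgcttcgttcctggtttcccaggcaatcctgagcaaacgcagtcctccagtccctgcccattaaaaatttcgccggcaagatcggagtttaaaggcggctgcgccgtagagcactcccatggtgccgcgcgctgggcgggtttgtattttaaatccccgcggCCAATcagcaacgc
Ifit1: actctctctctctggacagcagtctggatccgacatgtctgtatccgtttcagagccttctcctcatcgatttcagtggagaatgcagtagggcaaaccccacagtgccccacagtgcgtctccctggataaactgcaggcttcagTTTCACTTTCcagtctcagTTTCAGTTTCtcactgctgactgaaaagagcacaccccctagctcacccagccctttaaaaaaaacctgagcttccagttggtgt

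The Grem1 window held 72.0% G and C, against a median of 52.4% over all windows, and 93.1% of windows had less. No capital match overlapped a match to another motif searched. CCAAT occurred on either strand in 15 of the 16 windows of cell cycle genes (93.8%) and in 33.8% of all 32851 windows. The interferon response motif occurred in 5 of 10 interferon windows (50.0%) and in 2.98% of all. GGAAGT was found in 6 of 15 endothelial windows (40.0%) against 19.7% of all, and the antioxidant motif TGANNNNGC in 6 of 11 windows of NRF2 target genes (54.5%) against 35.2%. Some genes have several windows and others none, and a match is a stretch of letters, not a bound site.

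Endothelial genes were the group most raised in heart c-kit cells, with the highest median difference of the 20 lists. Of 24 measured, 21 were called higher and none lower, against 4.11% of all genes called higher, and the median difference was 6.39 against 0.16 for all genes. Averaged over the list, the heart c-kit arrays stood at 4.62, 5.05 and 4.66 and the MSC arrays at -0.49, -0.91 and -0.84. Over the alternative analyses 17 to 21 members were called higher. The 20 lists were chosen with earlier results of these data known, so their counts of calls are descriptions and no test.

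Among junction and adhesion genes, Cdh5 encodes VE-cadherin, the adhesion molecule of endothelial junctions. It measured 6.11, 6.60 and 5.85 on the heart c-kit arrays and -3.21, -2.84 and -4.37 on the MSC arrays. The difference was 9.66 ± 1.40 (SE; limma adjusted p = 0.000711), the largest of the list. Emcn, an endothelial sialomucin gene, stood at 4.03, 6.35 and 5.22 on the heart c-kit arrays and -0.56, -2.87 and -1.93 on the MSC arrays, a difference of 6.99 ± 1.67 (SE; limma adjusted p = 0.0149). Emcn was no longer called without heart c-kit replicate 2, without MSC replicate 2 or with array weights (limma adjusted p from 0.0514 to 0.0687). The tight junction gene Cldn5 differed by 6.76 ± 1.02 and Esam, an endothelial adhesion gene, by 6.41 ± 0.81, both called. Cd34, a sialomucin gene shared by endothelium and blood progenitors, differed by 2.75 ± 0.56 (SE; limma adjusted p = 0.00575). Cd34 was no longer called with medians aligned, on the deposited values or in a fit of the 6 arrays alone (limma adjusted p from 0.0552 to 0.119).

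The receptor genes moved the same way. Robo4, the roundabout receptor of endothelium, stood at 6.14, 6.43 and 6.06 on the heart c-kit arrays and -3.21, -3.24 and -2.68 on the MSC arrays, a difference of 9.25 ± 1.42 (SE; limma adjusted p = 0.000991). The angiopoietin receptor gene Tek differed by 6.89 ± 0.68 (SE; limma adjusted p = 5.16e-05) and its relative Tie1 by 6.37 ± 1.03 (SE; limma adjusted p = 0.00135). Kdr, the main VEGF receptor gene, was 6.80, 7.21 and 5.86 on the heart c-kit arrays and 0.65, 2.00 and 0.97 on the MSC arrays, a difference of 5.41 ± 1.10 (SE; limma adjusted p = 0.00576). No array of one group reached those of the other for these receptors.

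All 3 SoxF transcription factor genes were called. Sox18 was 6.16, 5.35 and 4.17 on the heart c-kit arrays and -3.21, -1.73 and -2.14 on the MSC arrays, and the difference was 7.58 ± 0.97 (SE; limma adjusted p = 0.000301). Sox17 was 4.29, 5.70 and 5.19 on the heart c-kit arrays and -0.56, -6.08 and -6.33 on the MSC arrays, with 1 MSC array at the fill value, and it differed by 9.39 ± 1.51 (SE; limma adjusted p = 0.00135) or by 6.77 with low values raised. Sox7 differed by 8.29 ± 0.81 (SE; limma adjusted p = 4.97e-05), with at least 1 array at the fill value, so the size of its difference is uncertain. The ETS factor gene Erg was not called, at 2.76 ± 1.55 (SE; limma adjusted p = 0.263), and its groups overlapped.

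Of the other members that were not called, Plvap, which encodes the diaphragm protein of fenestrated endothelium, was high on all arrays. It stood at 7.27, 7.04 and 7.21 on the heart c-kit arrays and 6.73, 6.69 and 6.81 on the MSC arrays, a difference of 0.43 ± 0.45 (SE; limma adjusted p = 0.56). Vwf, the von Willebrand factor gene of endothelium and megakaryocytes, had a value of -2.12 ± 1.15 (SE; limma adjusted p = 0.246) with overlapping groups. Eng, endoglin, belongs to both the endothelial and the MSC surface list. It was 4.51, 5.22 and 4.90 on the heart c-kit arrays and 2.81, 2.57 and 2.55 on the MSC arrays, and so was higher in heart c-kit cells, by 2.23 ± 0.46 (SE; limma adjusted p = 0.00634). Eng was no longer called with medians aligned, on the deposited values or in a fit of the 6 arrays alone (limma adjusted p from 0.055 to 0.118).

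The other 5 genes among the 10 largest called increases that were measured on all 6 arrays lay outside the list. Here and below, genes with model or clone names were left out of the 10 largest. Cd300lg, an endothelial mucin-like receptor gene, stood at 5.04, 6.88 and 5.58 on the heart c-kit arrays and -3.69, -0.78 and -3.23 on the MSC arrays, a difference of 8.40 ± 1.44 (SE; limma adjusted p = 0.00203). Esm1, the endothelial proteoglycan endocan, was 6.12, 4.95 and 5.61 on the heart c-kit arrays and -1.68, -3.05 and -3.69 on the MSC arrays, a difference of 8.37 ± 1.04 (SE; limma adjusted p = 0.000252). Mest, an imprinted gene of the alpha/beta hydrolase fold, differed by 7.65 ± 1.13 (SE; limma adjusted p = 0.000819), with 10.07 from its second probe. Nav3, a neuron navigator gene, differed by 6.89 ± 1.57 (SE; limma adjusted p = 0.0119). Nav3 was no longer called without MSC replicate 1 or 3 (limma adjusted p from 0.0501 to 0.0593). Ushbp1 differed by 7.04 ± 0.96 (SE; limma adjusted p = 0.000495), but its second probe gave -0.94, so its probes disagree.

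Genes for lipid uptake by capillaries were called in both directions, with 1 of 10 called higher, 2 lower and a median of 1.10. Of all genes 4.11% were called higher and 8.0% lower, and with so few members the counts are descriptions only. Gpihbp1, which anchors lipoprotein lipase on capillary endothelium, was 3.86, 3.78 and 2.46 on the heart c-kit arrays and 0.05, -0.29 and -0.41 on the MSC arrays, a difference of 3.58 ± 0.91 (SE; limma adjusted p = 0.0204). Gpihbp1 was no longer called without heart c-kit replicate 1 or 2, without MSC replicate 1, 2 or 3 or with array weights (limma adjusted p from 0.0565 to 0.0692). Lpl, the lipase itself, went the other way at 6.35, 5.44 and 5.49 on the heart c-kit arrays and 8.96, 9.14 and 8.63 on the MSC arrays, with 1 MSC spot near the scanner's ceiling and a difference of -3.15 ± 0.48 (SE; limma adjusted p = 0.000929). The fatty acid binding protein gene Fabp5 was also lower, with a difference of -6.58 ± 1.63 (SE; limma adjusted p = 0.0178), with 1 heart c-kit array at the fill value. Fabp5 was no longer called without heart c-kit replicate 2 or without MSC replicate 1 or 2 (limma adjusted p from 0.0552 to 0.0684).

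Of the Notch pathway, which governs arterial fate and sprouting, 7 genes were measured. Of these 2 were called higher, where 4.11% of all genes were, and none lower, with a median of 2.03. The receptor genes Notch1 to Notch4 were not analysed here. The endothelial ligand gene Dll4 was 3.04, 3.98 and 3.63 on the heart c-kit arrays and -3.43, -1.42 and -1.78 on the MSC arrays, a difference of 5.76 ± 0.79 (SE; limma adjusted p = 0.00051). The ligand gene Jag1 stood at 3.50, 3.40 and 4.70 on the heart c-kit arrays and 1.95, 2.51 and 1.84 on the MSC arrays, a difference of 1.76 ± 0.53 (SE; limma adjusted p = 0.0445). Jag1 was no longer called without heart c-kit replicate 3, without MSC replicate 1, 2 or 3, with medians aligned, on the deposited values, with array weights or in a fit of the 6 arrays alone (limma adjusted p from 0.0684 to 0.242). Nrarp, a Notch feedback gene, had a value of 5.26 ± 1.97 (SE; limma adjusted p = 0.099) and was not called.

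**Figure D2:**
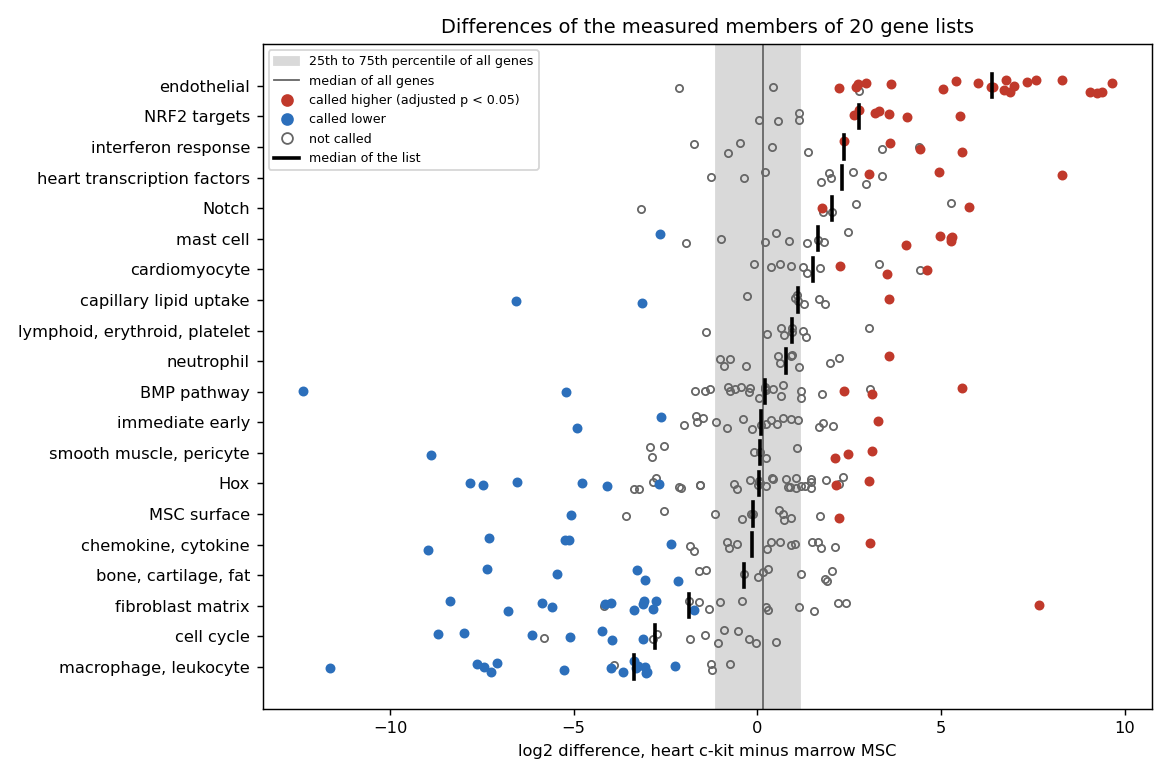
Log2 difference, heart c-kit minus marrow MSC (horizontal axis), of each measured member of 20 gene lists. Filled points were called at a limma adjusted p under 0.05 (red higher, blue lower), open points were not, black bars are list medians, and the grey line and band are the median and the 25th to 75th percentile of all genes, 0.16 and -1.12 to 1.15. The endothelial list has the highest median and the macrophage list the lowest.

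Mast cells are the other mature cell type known to carry c-kit in the heart. Of 15 mast cell genes measured, 5 were called higher, Kit among them, and 1 lower. Over all genes 4.11% were called higher and 8.0% lower, so the lower call was near the background. The median was 1.66, or 0.63 with low values raised. The protease gene Cma1, mast cell chymase, was 3.91, 3.91 and 3.04 on the heart c-kit arrays and -1.82, -1.61 and -1.53 on the MSC arrays. That is a difference of 5.27 ± 0.74 (SE; limma adjusted p = 0.000554). Tpsb2, a tryptase gene, stood at 7.35, 5.70 and 6.33 on the heart c-kit arrays and 1.54, 1.81 and 1.14 on the MSC arrays, a difference of 4.97 ± 0.74 (SE; limma adjusted p = 0.000895). Cpa3, mast cell carboxypeptidase, was 3.74, 0.47 and 3.50 on the heart c-kit arrays and -2.28, -3.36 and -2.53 on the MSC arrays, a difference of 5.29 ± 0.89 (SE; limma adjusted p = 0.00176). These groups did not overlap, and for Cpa3 heart c-kit replicate 2 was the lowest of its group. The granule proteoglycan gene Srgn, which other blood cells also express, was higher by 4.06 ± 0.67 (SE; limma adjusted p = 0.00154), and the prostaglandin synthase gene Hpgds was lower, with a difference of -2.64 ± 0.69 (SE; limma adjusted p = 0.0225). Hpgds was no longer called without heart c-kit replicate 2 or 3, without MSC replicate 1 or 2, with probes averaged or in a fit of the 6 arrays alone (limma adjusted p from 0.056 to 0.124). The genes of the IgE receptor, Fcer1a and Ms4a2, had values of 0.87 and 1.66 with overlapping groups, and Hdc, the histamine-forming enzyme, had 0.50. The mast cell list averaged 0.22, 0.19 and 0.50 on the heart c-kit arrays and -1.31, -1.66 and -1.74 on the MSC arrays. What part mast cells had in the other differences was not tested.

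Most macrophage and leukocyte genes were lower in heart c-kit cells. None of 19 measured was called higher and 15 were called lower, where 8.0% of all genes were, and the median difference was -3.35. The MSC arrays averaged 5.85, 6.12 and 5.63 over the list and the heart c-kit arrays 1.61, 1.75 and 1.25. The 15 lower calls became 8 without MSC replicate 1 and 8 without MSC replicate 2. C1qa, a chain of complement C1q made by tissue macrophages, was -2.56, -2.35 and -6.33 on the heart c-kit arrays and 8.11, 7.92 and 7.60 on the MSC arrays. Its difference was -11.62 ± 1.79 (SE; limma adjusted p = 0.00102). The companion chain C1qb stood at -1.59, -1.57 and 1.62 on the heart c-kit arrays and 6.98, 7.26 and 6.54 on the MSC arrays, a difference of -7.44 ± 1.29 (SE; limma adjusted p = 0.00217). Adgre1, which encodes the macrophage antigen F4/80, was -5.63, 3.14 and -3.36 on the heart c-kit arrays and 5.91, 6.22 and 4.91 on the MSC arrays. Here heart c-kit replicate 2 was far above the other arrays of its group, and the difference was -7.63 ± 1.94 (SE; limma adjusted p = 0.0204). Adgre1 was no longer called without heart c-kit replicate 1 or 3, without MSC replicate 1 or 2 or in a fit of the 6 arrays alone (limma adjusted p from 0.052 to 0.0847).

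The receptor for the macrophage growth factor, Csf1r, was -1.62, -2.95 and 2.69 on the heart c-kit arrays and 6.59, 6.89 and 5.87 on the MSC arrays, a difference of -7.07 ± 1.74 (SE; limma adjusted p = 0.0177). Csf1r was no longer called without heart c-kit replicate 1 or 2, without MSC replicate 1 or 2 or with array weights (limma adjusted p from 0.053 to 0.0693). Mrc1, the mannose receptor, differed by -7.25 ± 1.29 (SE; limma adjusted p = 0.00252), and Spi1, the transcription factor PU.1, by -3.35 ± 0.65 (SE; limma adjusted p = 0.00458). Spi1 was no longer called in a fit of the 6 arrays alone (limma adjusted p = 0.055). Outside the list, the fractalkine receptor gene Cx3cr1 was 0.41, 0.29 and -1.03 on the heart c-kit arrays and 8.39, 7.60 and 7.43 on the MSC arrays, a difference of -7.91 ± 1.09 (SE; limma adjusted p = 0.000516). Clec7a, the beta-glucan receptor dectin-1 of phagocytes, differed by -8.04 ± 1.21 (SE; limma adjusted p = 0.000913). Lcp1, Cd68, Coro1a and Ctss were not called, with values of -1.25, -1.24, -0.74 and -3.90.

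Chemokine genes that macrophages make were among the lower ones. Of 20 chemokine and cytokine genes, 5 were called lower and 1 higher, where 8.0% of all genes were called lower and 4.11% higher. Their median of -0.14 changed sign in some alternative analyses. Ccl4 stood at -2.80, -0.90 and -2.83 on the heart c-kit arrays and 7.34, 6.93 and 6.12 on the MSC arrays, a difference of -8.97 ± 1.74 (SE; limma adjusted p = 0.00441), and its neighbour Ccl3 differed by -5.22 ± 1.22 (SE; limma adjusted p = 0.0135). Ccl9 differed by -7.30 ± 0.85 (SE; limma adjusted p = 0.000179), or by -3.46 with low values raised, and Ccl7 by -5.12 ± 0.76 (SE; limma adjusted p = 0.000879). The growth factor gene Csf1 was 4.72, 5.42 and 5.07 on the heart c-kit arrays and 7.43, 7.22 and 7.58 on the MSC arrays, lower, with a difference of -2.34 ± 0.46 (SE; limma adjusted p = 0.00483). Csf1 was no longer called with medians aligned or on the deposited values (limma adjusted p from 0.0539 to 0.182). Il1b, an inflammatory cytokine gene, was the member called higher, at 3.06 ± 0.78 (SE; limma adjusted p = 0.02). Il1b was no longer called without heart c-kit replicate 2, without MSC replicate 2 or 3, with medians aligned, on the deposited values, with array weights or in a fit of the 6 arrays alone (limma adjusted p from 0.0547 to 0.0739). The macrophage list was lower in heart c-kit cells as the 5 lower genes were, and Il1b went the other way. As group means with no test, Ccl3, Ccl4 and Ccl9 were highest in MSC, as the macrophage list was. Ccl7 averaged 4.18 in MSC and 5.83 in the side population, where the macrophage list averaged -0.66. What part macrophages had in any of these genes was not tested.

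Markers of other blood cells were rarely called. Of 12 neutrophil genes 1 was called higher, where 4.11% of all genes were, so the count was near the background. This was Lcn2, higher by 3.57 ± 0.96 (SE; limma adjusted p = 0.0273), with 2 MSC arrays at the fill value. Lcn2 was no longer called without heart c-kit replicate 1 or 3, without MSC replicate 1 or 3, on the deposited values, with low values raised, with array weights or in a fit of the 6 arrays alone (limma adjusted p from 0.0517 to 0.13). Among 9 lymphoid, erythroid and platelet genes limma called none, and 1, the erythroid and mast cell factor gene Gata1 with a value of 1.26 ± 0.47, had an unadjusted p under 0.05. Their largest values were 3.04 ± 1.56 for the T cell receptor component Cd3d and -1.40 ± 1.32 for the B cell receptor component Cd79a, both with overlapping groups. Cd3d was called without heart c-kit replicate 3 (limma adjusted p = 0.0162).

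Of 13 surface antigen genes by which MSC are usually defined, 1 was called higher, Eng, and 1 lower, near the 12.1% of all genes called either way. Their median of -0.12 changed sign in some alternative analyses. The lower one was Pdgfrb, the PDGF receptor beta of stromal cells and pericytes, at -0.45, 0.47 and 2.66 on the heart c-kit arrays and 5.92, 5.66 and 6.34 on the MSC arrays, a difference of -5.08 ± 0.70 (SE; limma adjusted p = 0.000505). Values for Cd44, Nt5e (CD73), Vcam1, Pdgfra and Itgb1 were -1.15, -0.17, -0.41, 0.60 and 0.69, none of them called. Ly6a and Thy1 were not analysed here.

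Many genes of the fibroblast matrix were lower in heart c-kit cells. Of 25 measured, 12 were called lower and 1 higher, where 8.0% of all genes were called lower and 4.11% higher. The median was -1.87, and 6 were called lower in a fit of the 6 arrays alone. The list averaged 1.85, 1.55 and 2.42 on the heart c-kit arrays and 4.17, 3.49 and 3.75 on the MSC arrays. Without MSC replicate 1 the lower calls numbered 8, and likewise 8 without MSC replicate 3. Col5a1, a chain of the fibril-nucleating collagen V, was -6.00, -5.10 and -5.41 on the heart c-kit arrays and 3.33, 2.35 and 2.90 on the MSC arrays. Of its heart c-kit arrays 2 stood at the fill value, and the difference was -8.36 ± 0.72 (SE; limma adjusted p = 2.25e-05), or -5.13 with low values raised. The collagen I chain gene Col1a2 was -2.84, 2.25 and -1.53 on the heart c-kit arrays and 5.69, 5.16 and 4.65 on the MSC arrays, and its difference was -5.87 ± 0.96 (SE; limma adjusted p = 0.00147). Heart c-kit replicate 2 was the highest of its group for Col1a2 and for Lox, the collagen cross-linking oxidase, which differed by -6.80 ± 1.17 (SE; limma adjusted p = 0.00211).

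Members of the matrix list did not all go the same way. Col1a1, the partner chain of Col1a2, was 5.97, 5.08 and 5.90 on the heart c-kit arrays and 3.82, 2.95 and 2.95 on the MSC arrays, a value of 2.41 ± 1.01 (SE; limma adjusted p = 0.138) that was not called and has the opposite sign. Dpt, the matrix protein dermatopontin, was higher in heart c-kit cells, at 3.96, -0.90 and 5.90 on the heart c-kit arrays and -5.50, -3.05 and -5.50 on the MSC arrays with 2 MSC arrays at the fill value. Its difference was 7.67 ± 1.26 (SE; limma adjusted p = 0.00148). Dpt was no longer called in a fit of the 6 arrays alone (limma adjusted p = 0.0501). Further stromal genes were among the 10 largest decreases measured on all 6 arrays. P4ha3, a subunit of the collagen prolyl hydroxylase, was -2.34, -3.24 and -0.92 on the heart c-kit arrays and 6.53, 6.05 and 6.21 on the MSC arrays, a difference of -8.43 ± 0.91 (SE; limma adjusted p = 0.000104). Dkk3, a secreted protein of the dickkopf family, was -4.09, -3.65 and -2.83 on the heart c-kit arrays and 7.02, 6.10 and 6.27 on the MSC arrays, a difference of -9.99 ± 0.74 (SE; limma adjusted p = 7.41e-06).

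Genes of the BMP pathway were called in both directions. Of 25 measured, 3 were called higher and 2 lower, where 4.11% of all genes were called higher and 8.0% lower. The 3 higher calls became 1 with medians aligned or on the deposited values, and the median of 0.20 changed sign in some alternative analyses. Beside the antagonist Grem1, the ligand gene Bmp6 was 4.82, 5.74 and 5.25 on the heart c-kit arrays and -0.95, 0.20 and -0.13 on the MSC arrays, a difference of 5.56 ± 0.53 (SE; limma adjusted p = 4.09e-05). Values for the ligand genes Bmp4 and Bmp7, at 1.76 and 3.06, were not called. Of the receptors, Bmpr2 was higher by 2.37 ± 0.63 (SE; limma adjusted p = 0.0259), while Bmpr1a had 0.20. Bmpr2 was no longer called without heart c-kit replicate 1 or 2, without MSC replicate 1 or 3, with medians aligned, on the deposited values or in a fit of the 6 arrays alone (limma adjusted p from 0.0529 to 0.123). The transducer Smad1 was 6.43, 7.75 and 7.07 on the heart c-kit arrays and 4.23, 3.76 and 3.90 on the MSC arrays, a difference of 3.12 ± 0.57 (SE; limma adjusted p = 0.00288), and its relative Smad9 was lower, with a difference of -5.20 ± 1.23 (SE; limma adjusted p = 0.014) with 2 heart c-kit arrays at the fill value. Smad1 was no longer called with medians aligned or on the deposited values (limma adjusted p from 0.075 to 0.0774). Smad9 was no longer called without MSC replicate 1 or 3 (limma adjusted p from 0.0548 to 0.0558). The target genes Id1, Id2 and Id3 had values of 0.03, -1.42 and -0.44, with no call. Other secreted antagonists, Chrd and Fst, had 0.64 and -0.80, also with no call.

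Of 15 genes of bone, cartilage and fat, 5 were called lower in heart c-kit cells, where 8.0% of all genes were. None was called higher, and the median was -0.37. The lower calls numbered 3 without MSC replicate 1 and 3 without MSC replicate 2. The homeobox gene Dlx5, an osteoblast regulator, was -1.79, -1.36 and -0.21 on the heart c-kit arrays and 6.58, 5.79 and 6.32 on the MSC arrays, a difference of -7.35 ± 0.81 (SE; limma adjusted p = 0.000112). A second probe of Dlx5 gave -2.23, so the size of its difference is uncertain. Msx2, another homeobox gene of bone, differed by -5.45 ± 0.77 (SE; limma adjusted p = 0.000621), or by -1.86 with low values raised. The bone matrix genes Spp1, osteopontin, which macrophages also make, and Ibsp were lower, with differences of -3.06 ± 0.65 (SE; limma adjusted p = 0.00801) and -3.28 ± 0.86 (SE; limma adjusted p = 0.024). Spp1 was no longer called with medians aligned (limma adjusted p = 0.0956). Ibsp was no longer called without heart c-kit replicate 3, without MSC replicate 1 or 2, with array weights or in a fit of the 6 arrays alone (limma adjusted p from 0.064 to 0.112). Runx2, the main bone regulator, had a value of 0.15, Sox9 of cartilage -0.37 and Pparg of fat 2.04, none called. The macrophage list was higher on the same MSC arrays, and its part in Spp1 was not tested.

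Contractile genes were split. Acta2, smooth muscle actin, was among the 10 largest decreases measured on all 6 arrays, at 1.54, -1.82 and -1.40 on the heart c-kit arrays and 8.43, 8.11 and 8.40 on the MSC arrays. The difference was -8.87 ± 0.87 (SE; limma adjusted p = 5.16e-05), with -5.13 from its second probe. Of 11 smooth muscle and pericyte genes this was the only one called lower, near the 8.0% of all genes called lower. A further 3 were called higher, where 4.11% of all genes were. The median of the list, 0.07, changed sign in some alternative analyses. Called higher were the pericyte genes Rgs5, by 2.46 ± 0.67 (SE; limma adjusted p = 0.0282), and Kcnj8, by 3.11 ± 0.90 (SE; limma adjusted p = 0.0378) with overlapping groups, and the intermediate filament gene Des, by 2.11 ± 0.57 (SE; limma adjusted p = 0.028). Not all pericyte genes went this way. Cspg4, of the same list, had a value of -2.53, not called, and 0.49 from its second probe. Pdgfrb, given with the MSC surface genes, was called lower. Rgs5 was no longer called without heart c-kit replicate 1 or 3, without MSC replicate 1 or 3, with medians aligned, on the deposited values, with array weights or in a fit of the 6 arrays alone (limma adjusted p from 0.0517 to 0.125). Kcnj8 was no longer called without heart c-kit replicate 1 or 2, without MSC replicate 1 or 3, with medians aligned, on the deposited values or in a fit of the 6 arrays alone (limma adjusted p from 0.064 to 0.141). Des was no longer called without heart c-kit replicate 1 or 2, without MSC replicate 1, 2 or 3, with medians aligned, on the deposited values or in a fit of the 6 arrays alone (limma adjusted p from 0.0512 to 0.139).

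Heart muscle genes were called for 3 of 12 measured, all higher, where 4.11% of all genes were called higher. The median was 1.52, and none was called in a fit of the 6 arrays alone or without MSC replicate 1. Only 1 was called on the deposited values, with array weights, without heart c-kit replicate 2 or without MSC replicate 3. Tcap, the titin cap protein, was -1.12, -0.57 and 2.36 on the heart c-kit arrays and -5.50, -2.22 and -5.50 on the MSC arrays with 2 MSC arrays at the fill value, a difference of 4.62 ± 1.10 (SE; limma adjusted p = 0.0146). Tnnt2, cardiac troponin T, was 3.03, 3.87 and 5.07 on the heart c-kit arrays and 0.12, -1.26 and 2.51 on the MSC arrays, a difference of 3.53 ± 0.99 (SE; limma adjusted p = 0.0322). Csrp3, a muscle LIM protein gene, differed by 2.26 ± 0.62 (SE; limma adjusted p = 0.029). Tcap was no longer called without MSC replicate 1 or 3 or in a fit of the 6 arrays alone (limma adjusted p from 0.0674 to 0.0857). Tnnt2 was no longer called without heart c-kit replicate 2 or 3, without MSC replicate 1 or 2, with medians aligned, on the deposited values, with array weights or in a fit of the 6 arrays alone (limma adjusted p from 0.0595 to 0.128). Csrp3 was no longer called without heart c-kit replicate 1 or 2, without MSC replicate 1, 2 or 3, on the deposited values, with array weights or in a fit of the 6 arrays alone (limma adjusted p from 0.0502 to 0.125). The list averaged 0.79 in heart c-kit cells, -1.24 in MSC and 5.53 in the cardiomyocytes of the study. Tcap and Tnnt2 had their highest means in cardiomyocytes, at 6.81 and 7.44. Csrp3 averaged 3.36 in marrow c-kit cells, above its 3.19 in cardiomyocytes and 0.79 in heart c-kit cells.

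Heart transcription factor genes were called for 3 of 12, all higher, against 4.11% of all genes called higher, with a median of 2.31. Wt1, the Wilms tumour factor of the epicardium, was 4.34, 3.96 and 5.03 on the heart c-kit arrays and -5.50, -4.29 and -1.78 on the MSC arrays, with 1 MSC array at the fill value. Its difference was 8.30 ± 1.10 (SE; limma adjusted p = 0.000375). The zinc finger gene Gata6 was 3.46, 2.76 and 4.43 on the heart c-kit arrays and -2.42, -0.78 and -1.01 on the MSC arrays, a difference of 4.95 ± 0.68 (SE; limma adjusted p = 0.00051). Gata5 differed by 3.04 ± 0.71 (SE; limma adjusted p = 0.0137) between low levels. Gata5 was no longer called without MSC replicate 1 or 3, with low values raised, with array weights or in a fit of the 6 arrays alone (limma adjusted p from 0.0518 to 0.11). Gata4, Tbx5 and Isl1 had values of 1.96, 2.01 and 2.61, none called. Nkx2-5 was not analysed here.

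Hox genes, which set position along the body axis, were called in both directions. Of 38 measured, 6 were lower in heart c-kit cells and 2 higher, where 8.0% of all genes were called lower and 4.11% higher, so the higher calls were near the background. The median of 0.05 changed sign between analyses. The 6 lower genes belong to the HoxA and HoxC clusters and the higher ones to HoxC and HoxD. Hoxa11 was -5.63, -2.08 and -1.97 on the heart c-kit arrays and 4.67, 4.15 and 5.01 on the MSC arrays, a difference of -7.84 ± 0.97 (SE; limma adjusted p = 0.000252). Hoxc10 was -1.43, -3.65 and -1.27 on the heart c-kit arrays and 5.69, 4.78 and 5.55 on the MSC arrays, a difference of -7.46 ± 0.99 (SE; limma adjusted p = 0.000371). Hoxc6 and Hoxa9 differed by -6.55 ± 0.94 (SE; limma adjusted p = 0.00069) and -4.77 ± 0.88 (SE; limma adjusted p = 0.00321), and Hoxc4 and Hoxc9 by -4.10 ± 1.15 and -2.68 ± 0.65. The higher genes were Hoxc11, at 3.04 ± 0.70 (SE; limma adjusted p = 0.0127), and Hoxd3, at 2.13 ± 0.61 (SE; limma adjusted p = 0.0363). Hoxc11 was no longer called without MSC replicate 1, on the deposited values, with array weights or in a fit of the 6 arrays alone (limma adjusted p from 0.0539 to 0.071). Hoxd3 was no longer called without heart c-kit replicate 1 or 2, without MSC replicate 1 or 3, with medians aligned, on the deposited values, with trend and robust moderation, with array weights or in a fit of the 6 arrays alone (limma adjusted p from 0.0589 to 0.246). Hoxc4 was no longer called without heart c-kit replicate 1 or 3, without MSC replicate 1 or 3, with medians aligned, with the replicate block or with array weights (limma adjusted p from 0.0528 to 0.116). Hoxc9 was no longer called without MSC replicate 1 or 3 or in a fit of the 6 arrays alone (limma adjusted p from 0.0638 to 0.0658). With low values raised, Hoxa9 differed by -2.32. Another positional gene, the T-box factor Tbx15 of limb and skin mesenchyme, was -1.64, -1.12 and -0.10 on the heart c-kit arrays and 7.47, 6.98 and 7.42 on the MSC arrays. Its difference was -8.25 ± 0.58 (SE; limma adjusted p = 4.25e-06), and the groups were far apart.

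Part of the cell division genes were lower in heart c-kit cells. Of 18 measured, 7 were called lower, against 8.0% of all genes, and none higher, with a median of -2.79. The MSC arrays averaged 4.41, 3.94 and 4.51 over the list and the heart c-kit arrays 1.24, 0.97 and 1.31, and 5 to 9 members were called lower over the alternatives. The proliferation antigen gene Mki67 was 0.73, -1.36 and 0.86 on the heart c-kit arrays and 6.33, 5.88 and 6.41 on the MSC arrays, a difference of -6.13 ± 0.95 (SE; limma adjusted p = 0.00103), with -6.24 from its second probe. Ccna2, cyclin A2, was -3.13, -5.10 and -3.71 on the heart c-kit arrays and 4.31, 3.58 and 4.10 on the MSC arrays, with 1 heart c-kit array at the fill value and a difference of -7.97 ± 1.23 (SE; limma adjusted p = 0.00102). Bub1, whose upstream window is printed above, was -4.56, -6.30 and -5.41 on the heart c-kit arrays and 3.75, 2.76 and 3.28 on the MSC arrays, with 1 heart c-kit array at the fill value. Its difference was -8.68 ± 0.89 (SE; limma adjusted p = 6.62e-05), or -5.54 with low values raised, and a second probe gave -2.36. Plk1, also printed above, stood at 2.71, 1.94 and 0.96 on the heart c-kit arrays and 6.28, 5.58 and 6.42 on the MSC arrays, a difference of -4.22 ± 0.59 (SE; limma adjusted p = 0.000532). Top2a, topoisomerase II alpha, differed by -5.10 ± 1.33 (SE; limma adjusted p = 0.0225). Top2a was no longer called without heart c-kit replicate 2, without MSC replicate 1, 2 or 3 or with array weights (limma adjusted p from 0.0503 to 0.0848). The replication helicase genes Mcm2 to Mcm7 that were measured had values from -2.85 to -0.03, none called.

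Immediate early genes rise soon after handling or stimulation of cells. Of 21 measured, 1 was called higher and 2 lower, near the 12.1% of all genes called either way, with a median of 0.11 whose sign changed in some alternative analyses. Fosl1, an AP-1 component, was 8.02, 7.71 and 8.73 on the heart c-kit arrays and 4.67, 4.32 and 5.59 on the MSC arrays, higher by 3.29 ± 0.60 (SE; limma adjusted p = 0.00294). Fos and Egr2 were lower, with differences of -2.63 ± 0.77 (SE; limma adjusted p = 0.0393) and -4.91 ± 1.38 (SE; limma adjusted p = 0.0336). Fos was no longer called without heart c-kit replicate 1, without MSC replicate 1, 2 or 3, with medians aligned, on the deposited values or in a fit of the 6 arrays alone (limma adjusted p from 0.0678 to 0.25). Egr2 was no longer called without MSC replicate 1, 2 or 3 or in a fit of the 6 arrays alone (limma adjusted p from 0.0822 to 0.176). Jun, Egr1, Atf3 and Dusp1 had values of -0.40, -0.14, 0.24 and 0.11, none called.

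Most target genes of NRF2, the factor that responds to oxidants and electrophiles, were higher in heart c-kit cells. Of 11 measured, 7 were called higher, against 4.11% of all genes, and none lower, with a median of 2.78. This list too was chosen with earlier results of these data known, so the count is a description and no test. But only 2 were called without MSC replicate 1, 3 without MSC replicate 2 and 4 without MSC replicate 3. The count was 3 without heart c-kit replicate 1 and 3 without heart c-kit replicate 2. The list averaged 6.69, 6.13 and 6.40 on the heart c-kit arrays and 3.67, 3.87 and 4.05 on the MSC arrays. It averaged 1.95 to 3.03 in the other 4 populations. Gclc, the catalytic subunit of the first enzyme of glutathione synthesis, was 6.40, 5.46 and 6.25 on the heart c-kit arrays and 1.86, 2.25 and 1.77 on the MSC arrays. The difference was 4.08 ± 0.50 (SE; limma adjusted p = 0.000252). Its modifier subunit gene Gclm differed by 3.58 ± 0.96 (SE; limma adjusted p = 0.0272), and Slc7a11, which imports cystine, was 5.18, 3.73 and 5.48 on the heart c-kit arrays and 1.17, 1.76 and 1.87 on the MSC arrays, a difference of 3.20 ± 0.56 (SE; limma adjusted p = 0.00231). Gsta4, a glutathione transferase, and Nqo1, a quinone reductase, differed by 5.51 ± 1.62 (SE; limma adjusted p = 0.0411) and 3.32 ± 0.91 (SE; limma adjusted p = 0.0296). Gclm was no longer called without heart c-kit replicate 1 or 2, without MSC replicate 1, 2 or 3 or with array weights (limma adjusted p from 0.05 to 0.0892). Gsta4 was no longer called without heart c-kit replicate 1, 2 or 3, without MSC replicate 1, 2 or 3, with medians aligned, on the deposited values, with low values raised or with array weights (limma adjusted p from 0.0545 to 0.139). Nqo1 was no longer called without heart c-kit replicate 1 or 2, without MSC replicate 1 or 2, on the deposited values, with array weights or in a fit of the 6 arrays alone (limma adjusted p from 0.0511 to 0.118). Hmox1, heme oxygenase 1, was high on all arrays, at 9.50, 9.62 and 9.35 on the heart c-kit arrays and 8.33, 8.23 and 8.50 on the MSC arrays, and its difference of 1.14 ± 0.49 (SE; limma adjusted p = 0.145) was not called.

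Interferon response genes were called for 4 of 11, all higher in heart c-kit cells, against 4.11% of all genes called higher. The median of 2.36 came to 1.38 with low values raised. Calls numbered 2 without MSC replicate 1 and 2 without MSC replicate 2. Ifit1, whose upstream window is printed above, was 4.85, 5.80 and 5.54 on the heart c-kit arrays and 0.30, -1.64 and 0.85 on the MSC arrays. Its difference was 5.56 ± 0.70 (SE; limma adjusted p = 0.000274). Isg15, a ubiquitin-like modifier gene, was 4.08, 5.77 and 3.62 on the heart c-kit arrays and 0.86, -1.04 and 0.36 on the MSC arrays, a difference of 4.43 ± 0.87 (SE; limma adjusted p = 0.00479). Irf7, a transcription factor of the pathway, differed by 3.60 ± 0.87 (SE; limma adjusted p = 0.016). Irf7 was no longer called without heart c-kit replicate 2, without MSC replicate 1 or 2, with medians aligned, on the deposited values or in a fit of the 6 arrays alone (limma adjusted p from 0.0543 to 0.0785). Mx1 was at the fill value on all MSC arrays, so its fitted difference of 2.36 has no reliable size. Mx1 was no longer called without heart c-kit replicate 1 or 3, without MSC replicate 1, 2 or 3, with low values raised, with trend and robust moderation, with the replicate block, with array weights or in a fit of the 6 arrays alone (limma adjusted p from 0.054 to 1). Cxcl10 and Psmb8 had values of -1.72 and -0.80, not called.

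The remaining genes among the 10 largest decreases measured on all 6 arrays belonged to no list. Chchd10, a mitochondrial intermembrane space protein gene, was -3.87, -6.30 and -1.27 on the heart c-kit arrays and 4.59, 5.49 and 4.91 on the MSC arrays, a difference of -8.81 ± 0.97 (SE; limma adjusted p = 0.000122). Prss46, a serine protease gene, was -2.10, -6.30 and -6.33 on the heart c-kit arrays and 3.74, 3.35 and 3.48 on the MSC arrays, a difference of -8.43 ± 1.20 (SE; limma adjusted p = 0.000621) or -5.74 with low values raised. The mean level of Chchd10 was 4.8 in marrow c-kit cells and 4.9 in cardiomyocytes, close to the 5.0 of MSC.

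**Figure D3:**
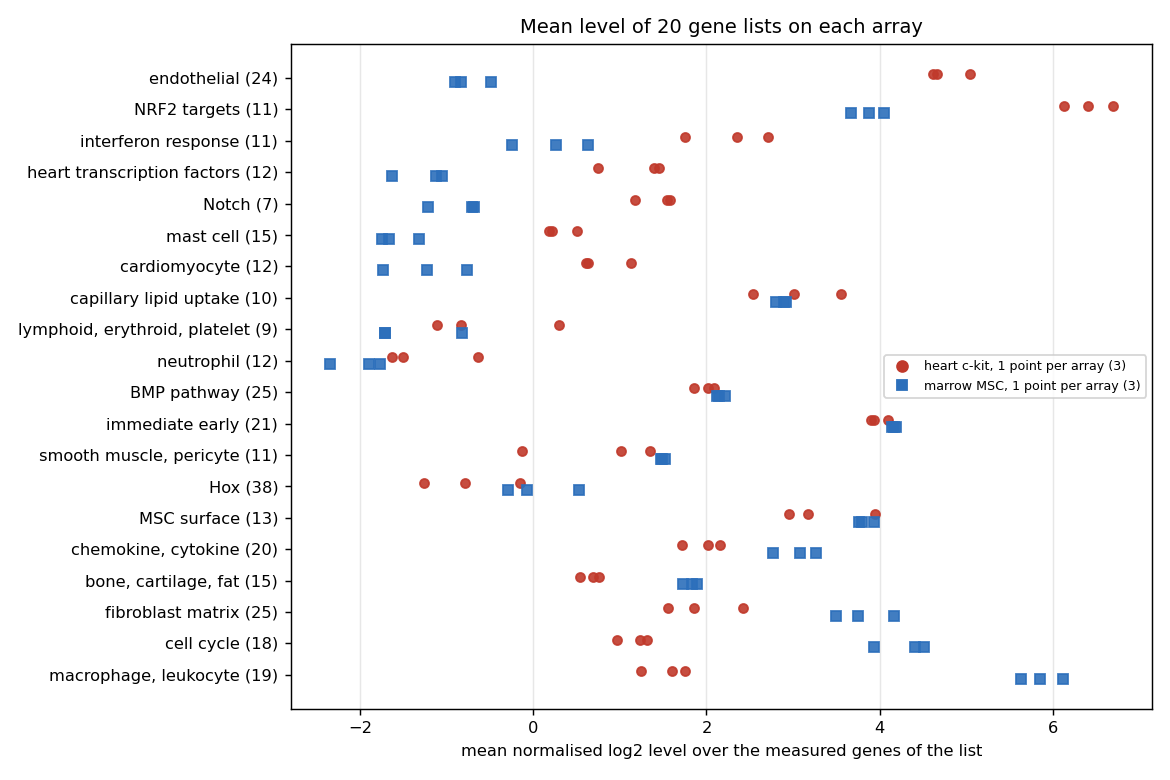
Mean normalised log2 level (horizontal axis) over the measured members of 20 gene lists (number in brackets) on each of the 3 heart c-kit arrays (red circles) and the 3 marrow MSC arrays (blue squares). The endothelial list lies between 4.62 and 5.05 on the heart c-kit arrays and below 0 on the MSC arrays, the macrophage list lies the other way round, and the BMP and MSC surface lists overlap or nearly touch.

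Levels in the other populations of the study set the leading genes in context, as group means with no test. Cdh5, Robo4 and Sox18 averaged 6.2, 6.2 and 5.2 in heart c-kit cells and 6.4, 7.4 and 5.9 in cardiomyocytes, which were collected by a method other than sorting. Pecam1 was less restricted, with means of 6.0 in heart c-kit cells, 5.8 in cardiomyocytes and 4.8 in the side population. It averaged 3.4 in heart Sca1 cells and 2.8 in marrow c-kit cells. Cd300lg averaged 5.7 in the side population and 4.5 in heart Sca1 cells. The mean of the endothelial list was highest in cardiomyocytes, at 6.07, and 4.78 came next in heart c-kit cells. Sca1 cells of the heart reached 2.85 and the side population 1.48, while the marrow groups stood at 0.07 for c-kit cells and -0.74 for MSC. The Sca1 arrays were uneven, at 1.45, 2.22 and 4.88, the last within the range of the heart c-kit arrays. The macrophage list had its highest mean, 5.87, in MSC. Its mean was 3.64 for marrow c-kit cells and 3.42 for cardiomyocytes. The sorted heart cells were lower, at 1.54 after the c-kit sort, 0.63 after the Sca1 sort and -0.66 for the side population. Here too the Sca1 arrays were uneven, at -0.36, -0.31 and 2.57. The matrix list averaged 1.94 in heart c-kit cells and 3.80 in MSC but 4.94 to 6.44 in the other 3 cardiac groups, and Dkk3 likewise had means of 5.8 to 7.6 in those groups and -3.5 in heart c-kit cells. Cell cycle genes averaged 5.63 and 4.29 in the marrow groups, c-kit cells and MSC, and 0.37 to 1.57 in the 4 cardiac groups.

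**Figure D4:**
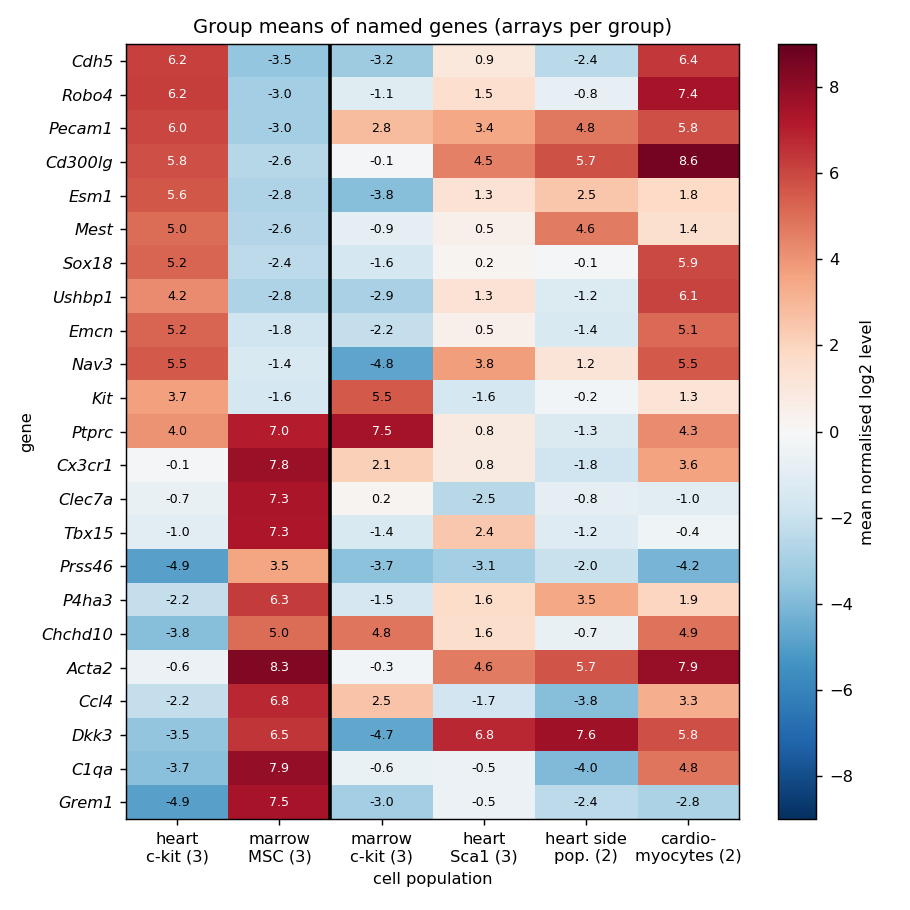
Mean normalised log2 level (colour and printed value) of 23 named genes (vertical axis) in the 6 cell populations (horizontal axis, number of arrays in brackets), with the compared groups left of the black line. Endothelial genes such as Cdh5 are high in heart c-kit cells and cardiomyocytes, while Pecam1 and Cd300lg also reach 4.8 and 5.7 in the side population. Grem1 is at 7.5 in MSC and below 0 in every other population.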

How the data were processed

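Values deposited by the authors are log2 Cy5 intensities, centred on each array's mean as the values show, except MSC replicate 3 with a mean of 0.30. Each array repeats 1 fill value (4.02% to 13.7% of probes on the 6 arrays), whose rule, like scanner settings and background correction, is not given in the sources used here. Per the labels' protocols, RNA was amplified with a WT-Ovation Pico kit, and only Cy5 was read. All 26423 probes of the 16 arrays were quantile normalised and named by GRCm38.p6 symbols (18213 current, 2126 through a synonym, 6046 unnamed). The probe with the highest mean stood for a gene. Limma 3.58.1 in R 4.3.3 was fitted with 6 group means (residual degrees of freedom 10), with Benjamini-Hochberg adjustment over 17710 genes, after a check on simulated data. The simulated arrays had the same spread in every group, so the check does not cover groups of unequal spread. Members and lists were chosen with earlier results of these data known. Named genes were Kit, Ptprc, Pecam1 and Grem1, the 10 largest called differences each way measured on all 6 arrays without overlap, and up to 4 called members of each of 20 lists (or the 2 largest where none was called). Symbols that are model or clone names (such as Gm, LOC or Rik symbols and accessions) were left out of the 10 largest. Others named, such as Tie1, Plk1 and Col1a1, were chosen after their values were seen. A further 15 analyses changed the scaling, the filter or floor on low values, the probe rule, the moderation, a replicate block, array weights or the arrays fitted, including each array left out. Another, which left out genes at the fill value on any of the 6 arrays, was chosen after seeing the data.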

Additional observations from a re-analysis of the deposited data

How the results depend on the processing

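Of the 80 named genes that were called, 51 were called in the same direction in each of the 16 alternatives that tested them. The 2143 calls became 1043 in a fit of only the 6 arrays and 1075 to 2655 when an array was left out. The 727 higher calls became 328 on the deposited values, 444 with array weights per group, 258 with the 6 arrays alone and 305 to 926 with an array left out. The 1416 lower calls became 785 with the 6 arrays alone and 770 to 1729 with an array left out. Aligned medians gave 1464 calls, and leaving out 4276 genes at the fill value gave 1900 of 13434. The median of the BMP list turned to -0.17 on the deposited values, -0.27 without heart c-kit replicate 3 and -0.13 without MSC replicate 2 (range with an array left out -0.27 to 0.31). The median of the bone, cartilage and fat list turned to 0.26 with medians aligned, still below the 0.57 of all genes in that setting. It turned to 0.004 without heart c-kit replicate 1 and 0.035 without MSC replicate 3 (range with an array left out -1.02 to 0.035). Signs also changed for the medians of the MSC surface list (-0.59 to 0.41 over the alternatives), the chemokine and cytokine list (-0.47 to 0.27), the immediate early list (-0.37 to 0.32), the smooth muscle list (-0.33 to 0.74) and the Hox list (-0.80 to 0.54). The 0.74 of the smooth muscle list and the 0.54 of the Hox list came with medians aligned, where the median of all genes was 0.57. Cd79a, not called, ran from -2.87 without heart c-kit replicate 1 to 0.70 without heart c-kit replicate 2. The cause of these changes was not tested. With the replicate number as a block 2065 genes were called, 696 higher and 1369 lower. Same-numbered arrays deviated with correlations of -0.14, -0.07 and 0.05, so the numbers were not taken to pair the samples. Array weights were 0.47 for heart c-kit and 2.18 for MSC arrays. Differences against a side near the floor are uncertain in size.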

Other observations

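These families were looked up after their values were seen, and the counts are descriptions beside the 12.1% of all genes called. The Gimap genes, GTPases of lymphocytes and endothelium, had 8 members measured and 5 called higher in heart c-kit cells, with a median difference of 4.37. Gimap1, Gimap3, Gimap4, Gimap5 and Gimap6 differed by 6.18 ± 1.52, 5.64 ± 1.27, 3.41 ± 0.83, 6.14 ± 1.41 and 4.70 ± 0.66 (SE). Each of these but Gimap6 lost its call in at least 1 alternative, and Gimap4 in 5. Of 5 Slamf receptor genes of leukocytes, Slamf7, Slamf8 and Slamf9 were called lower, at -7.05 ± 0.69, -4.65 ± 0.76 and -8.35 ± 1.00. Among 19 Ms4a genes 3 were called lower, Ms4a6b, Ms4a6c and Ms4a7, and none higher. Ms4a6b was not called in 11 of the alternatives. Of 30 Clec genes 2 were called higher and 3 lower. The higher calls, Clec2m and Clec14a, and the lower call of Clec4a3 were lost in at least 1 alternative. Of 5 Siglec genes limma called none, with 0 at an unadjusted p under 0.05.

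Of 38 genes whose symbols begin with Psm, most of them proteasome subunits, 8 were called higher and 2 lower, with a median of 0.61. Psma6 and Psmd12 differed by 3.85 ± 0.72 and 2.76 ± 0.54, and Psmb10, an immunoproteasome subunit, by -2.62 ± 0.66. With medians aligned and on the deposited values, the higher calls of Psma7, Psmb2, Psmc4, Psmd1, Psmd12 and Psmd14 were lost. The lower call of Psmb10 was lost there too and in 5 further alternatives. Of the higher calls only those of Psma1 and Psma6 were kept in each alternative that tested them. Kinesin genes had 9 of 37 members called lower and none higher, and centromere protein genes 4 of 20, among them Cenpa at -9.01 ± 0.86. Of 7 Cdca genes 3 were called lower, and of 13 Tbx genes 1, with none higher in either. Calls lost in at least 1 alternative were those of Kif1a, Kif3a, Kif4, Kif16b, Cenpe, Cenpi, Cdca3 and Cdca8. Of 529 olfactory receptor genes, 13 were called (2.46%), 11 of them higher.

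Some muscle genes outside the heart muscle list, chosen after their values were seen, were called higher in heart c-kit cells. Mb, myoglobin, stood at 4.88, 4.19 and 1.94 on the heart c-kit arrays and -2.42, -0.05 and -0.91 on the MSC arrays. It was no longer called without heart c-kit replicate 1 or 2 or without MSC replicate 1 or 3 (limma adjusted p from 0.0674 to 0.112). Trim54, a muscle ring finger gene, stood at 1.31, 3.87 and 0.39 against -4.02, -4.09 and -3.45, with a mean of -0.63 in cardiomyocytes. Smpx and Ckmt2 were at the fill value on 2 and 3 MSC arrays, and Ckmt2 was no longer called with low values raised or in a fit of the 6 arrays alone.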
